A study of Arabidopsis thaliana with 12 samples.

Results

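Total RNA of whole Arabidopsis thaliana rosettes (Col-0) was compared after 10 min of high light with total RNA of plants that stayed in low light. The comparison used 6 of the 12 libraries of the series, namely every library titled as total RNA, and it paired libraries that carry the same replicate number. The 3 HL libraries came from plants that spent 10 days in dim light of 8 and then 10 min in bright light of 800 (both in µmol photons m-2 s-1). The 3 LL libraries came from plants that spent the same 10 days at 8 and were not moved. Plants of both groups were 3 weeks old when the low-light period began and were harvested at the middle of the light period. The other 6 libraries hold ribosome-protected fragments (RPF, footprints) from the same kind of extract and are used here only to read the genes found in total RNA. The question was which transcripts had risen or fallen within 10 min, with weight on the falls and on genes outside the heat-shock response.

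A transcript level is set by synthesis and decay. A level can rise within minutes when transcription starts on a silent gene, whereas a level can fall only as fast as the existing RNA is removed, so early falls are usually seen among short-lived messages. In leaves, many messages that accumulate in dim light or under low sugar encode regulators that hold back growth or metabolism. Excess light is also known to switch on chaperone genes through heat-shock transcription factors.

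The total RNA libraries held 2472792 to 16304757 counts after rRNA and tRNA rows, 0.946% to 4.62% of all counts, were set aside. LL 1 was the shallowest library and also had the highest rRNA and tRNA share. Plastid transcripts took 65.1% ± 8.72 of the counts in HL and 64.8% ± 3.47 in LL (SD, n = 3 each, exact two-sided permutation p = 0.9, with 0.1 the smallest p this design allows). The 3 green leaf markers (RBCS1A, CA1 and LHCB3) summed to between 4074 and 4751 library-scaled counts (CPM) in HL and between 4077 and 5639 CPM in LL. The 3 root-hair markers had 0 counts in every library, and the 4 floral identity genes had at most 10 counts over the 3 libraries of a group. None of the 17 tested markers of guard cells, epidermis, phloem and mesophyll was called changed. The rosettes are bulk samples, so fewer cells of a type and less RNA per cell cannot be told apart.

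Of 15940 genes tested, 84 were higher in HL (0.527% of genes tested) and 41 were lower (0.257%), in all 0.784%. Calls were made with the edgeR quasi-likelihood test with the replicate number as a block, at a Benjamini-Hochberg adjusted p under 0.05 and with no minimum fold. At an unadjusted p under 0.05, 596 genes were higher and 548 lower, and the median log2 change of all genes tested was 0.00. The 41 lower genes kept 32.2% to 59.8% of their LL level (median 48.7%), which is a log2 change of -1.63 to -0.74. The rises spanned log2 changes of 0.77 to 6.89, and 43 of the 84 were past 2. Without the block 32 genes were called higher (0.201%) and 2 lower (0.0125%), and those 2 falls were DEWAX (AT5G61590) and AT5G21940. Leaving out 1 library at a time gave 29 to 88 falls (29 without HL 1, 30 without LL 1, 88 without HL 3) and 69 to 129 rises (129 without LL 2), and 16 of the 41 falls and 58 of the 84 rises were called in all 6 such fits. With the block, a library whose partner is left out no longer informs the light change. Such a fit estimates the change from the other pairs. The 6 fits are therefore not 6 independent checks, and they largely repeat the fits that left out a pair.

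In 31 of the 41 falls every HL library lay below every LL library, against 3.22% of all genes tested. The falls were picked by their calls on these same values, so this share describes them and supports nothing. In 40 of the 41 each HL library lay below the LL library of its own number; the exception, AT1G70420, was lower in 2 of 3 pairs. All 41 encode proteins, and none was on the heat-shock list. By the roles of the named members, 14 are transcription regulators, 4 are substrate adaptors of ubiquitin ligases, 2 are CCCH zinc-finger proteins, 3 are plastid thioredoxin or DnaJ proteins and 3 are metabolic enzymes. A further 13 have no name in the reference gene table, and the other 2 are the small peptide RTFL16 and AT4G33980. These role classes were drawn up after the calls were known, so they describe the falls and support nothing.

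**Figure D1:**
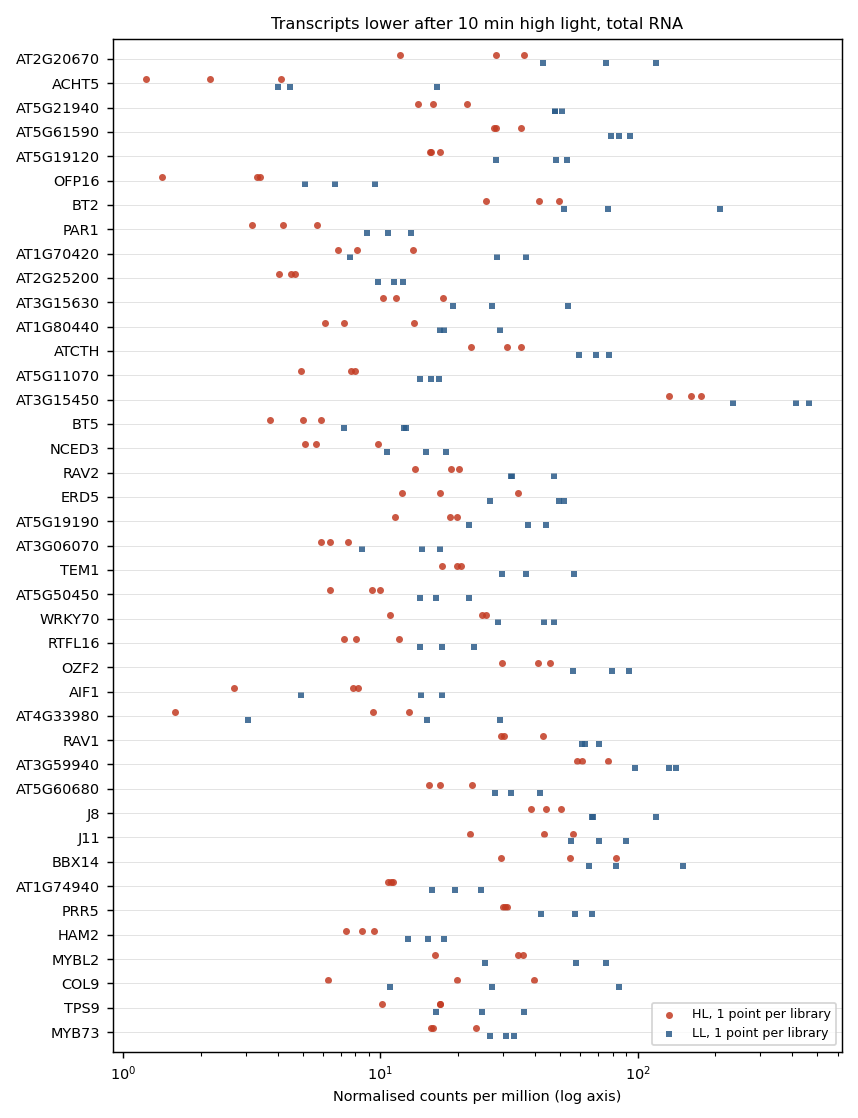
Normalised counts, CPM (horizontal log axis) of the 41 transcripts called lower in HL, ordered from the largest fall at the top, with 1 red circle per HL library and 1 blue square per LL library. In 31 of the 41 rows all 3 HL points lie left of all 3 LL points.

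The transcription regulator with the clearest fall was DEWAX (AT5G61590, chromosome 5, 24764438 to 24765324, minus strand, TAIR10), an AP2/ERF factor named for the decrease of wax synthesis that it causes. Its level was 35.4, 27.7 and 28.3 CPM in HL 1 to 3, against 93.7, 79.0 and 85.1 CPM in LL 1 to 3. The 3 HL values were close to each other and all far below the LL values. The log2 change was -1.50 ± 0.15 (SE, adjusted p = 7.47e-05), and the gene was called in every fit that left out a library or a pair. On the wax list, which holds KCS6, CER3 and the MYB regulators of wax synthesis, none of 7 tested members was called, and KCS6 had a log2 change of -0.06 (adjusted p = 0.968).

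The RAV family joins an AP2 and a B3 DNA-binding domain, and its members TEM1 and RAV2 (also called TEM2) are repressors of flowering. RAV2 (AT1G68840, chromosome 1, 25880323 to 25882222, plus strand) had 13.7, 18.8 and 20.3 CPM in HL, against 32.2, 32.6 and 47.3 CPM in LL. TEM1 had 17.39, 19.9 and 20.6 CPM in HL, against 56.8, 37.0 and 29.8 CPM in LL. RAV1 had 29.5, 43.0 and 30.2 CPM in HL, against 60.6, 62.3 and 70.9 CPM in LL. In all 3 genes the HL and LL values did not overlap. Their log2 changes were -1.07 ± 0.15 (adjusted p = 0.00285), -1.03 ± 0.19 (adjusted p = 0.0235) and -0.93 ± 0.16 (adjusted p = 0.0155). EDF3, the other member that was examined, stood under 2 CPM in every library and was not called (log2 change -0.43, adjusted p = 0.893). TEM1 and RAV1 lost their calls without pair 1 (adjusted p = 0.0941 and 0.0665), while RAV2 kept its call without each pair.

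Several falls encode proteins that hold back elongation or pigment. PAR1, an HLH protein that restrains shade-avoidance growth, had 5.67, 4.17 and 3.18 CPM in HL, against 13.1, 8.86 and 10.7 CPM in LL. All HL values of PAR1 lay under all LL values (log2 change -1.33 ± 0.21, adjusted p = 0.00729), while its close relative PAR2 was not called at a log2 change of 0.53. AIF1, an HLH-type growth inhibitor of the brassinosteroid pathway, had 8.21, 7.86 and 2.69 CPM in HL, against 17.38, 14.3 and 4.93 CPM in LL. The third replicate stood low in both lights, so the AIF1 groups overlapped although every pair fell (adjusted p = 0.0382), and the call was lost without pair 1 (0.21), without pair 2 (0.252) and in DESeq2 with the block (0.302). MYBL2, a single-repeat MYB repressor of anthocyanin synthesis, had 16.3, 34.4 and 36.0 CPM in HL, against 25.4, 57.7 and 75.1 CPM in LL, with a log2 change of -0.84 ± 0.15 (adjusted p = 0.0185). Its groups overlapped too, since replicate 1 stood low in both lights, and its call was lost without pair 2 (adjusted p = 0.0907).

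Members of 1 family were called in opposite directions in the case of MYB44 and MYB73, which are closely related R2R3 MYB factors. MYB73 had 23.4, 15.72 and 16.03 CPM in HL, against 33.1, 26.7 and 30.8 CPM in LL, a log2 change of -0.74 ± 0.15 (adjusted p = 0.0344). MYB44, listed in the reference table as MYBR1, had 77.0, 88.3 and 119 CPM in HL, against 36.9, 43.7 and 60.8 CPM in LL, a log2 change of 1.01 ± 0.15 (adjusted p = 0.00385). Neither gene's groups overlapped. The other two tested members, MYB77 (log2 change 0.87, adjusted p = 0.277) and MYB70 (0.33, adjusted p = 0.909), were not called. MYB73 lost its call without pair 2 (adjusted p = 0.223) and without pair 3 (0.089).

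WRKY70, a factor between salicylate and jasmonate defence, had 24.8, 25.7 and 10.9 CPM in HL, against 47.5, 43.2 and 28.8 CPM in LL. Its groups did not overlap, and it was called without each library and each pair (log2 change -1.01 ± 0.16, adjusted p = 0.00639). OFP16, of the OVATE family of repressors, had 1.42, 3.41 and 3.304 CPM in HL, against 5.09, 6.67 and 9.51 CPM in LL (log2 change -1.36 ± 0.27, adjusted p = 0.0308). HAM2 (AT3G60630), a GRAS regulator of shoot meristems, had 8.51, 9.47 and 7.34 CPM in HL, against 15.3, 17.63 and 12.8 CPM in LL, and its relatives HAM1 (log2 change -0.42) and HAM3 (-0.42) were not called. The OFP16 and HAM2 groups did not overlap, but the OFP16 call was lost without pair 1 (adjusted p = 0.0632) and without pair 3 (0.066) and held without pair 2 (0.0474). HAM2 was called at an adjusted p of 0.0344 and not without pair 1 (0.0879) or pair 2 (0.296).

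The regulators that fell also include 3 tied to daylength or the clock. PRR5, a pseudo-response regulator that represses morning clock genes, had 30.0, 31.0 and 30.5 CPM in HL, against 42.0, 57.4 and 66.5 CPM in LL. Its HL values lay within 1 CPM of each other and below all LL values (log2 change -0.85 ± 0.16, adjusted p = 0.0223). BBX14, a B-box protein, had 82.6, 54.5 and 29.5 CPM in HL, against 150.9, 82.8 and 64.8 CPM in LL, and COL9, a B-box protein that delays flowering, had 39.4, 19.9 and 6.24 CPM in HL, against 84.8, 27.2 and 10.9 CPM in LL. For both B-box genes replicate 1 stood highest and replicate 3 lowest in each light, so the groups overlapped while each pair was lower in HL (log2 changes -0.86 ± 0.16 and -0.79 ± 0.16, adjusted p = 0.0221 and 0.046). The calls of BBX14 and COL9 were lost without pair 1 (adjusted p = 0.0576 and 0.404), and that of PRR5 without pair 2 (0.145). The relatives BBX15 (0.01), BBX16 (0.49) and BBX17 (-0.52) were not called.

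The CCCH zinc-finger proteins bind RNA. ATCTH, also called TZF1 (AT2G25900, chromosome 2, 11041331 to 11043209, plus strand), had 22.6, 35.3 and 31.1 CPM in HL, against 69.1, 59.2 and 77.5 CPM in LL. OZF2, also called TZF3, had 29.8, 41.0 and 45.5 CPM in HL, against 56.0, 79.8 and 92.6 CPM in LL. Both genes were lower without overlap, with log2 changes of -1.21 ± 0.17 (adjusted p = 0.003) and -0.97 ± 0.14 (adjusted p = 0.00393), and both were called without each library and each pair. The third member, TZF2, listed as OZF1, stood at 28.7, 33.2 and 34.9 CPM in HL, against 46.2, 46.5 and 43.2 CPM in LL. It was lower without overlap too, but it was not called (log2 change -0.48, adjusted p = 0.296).

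**Figure D2:**
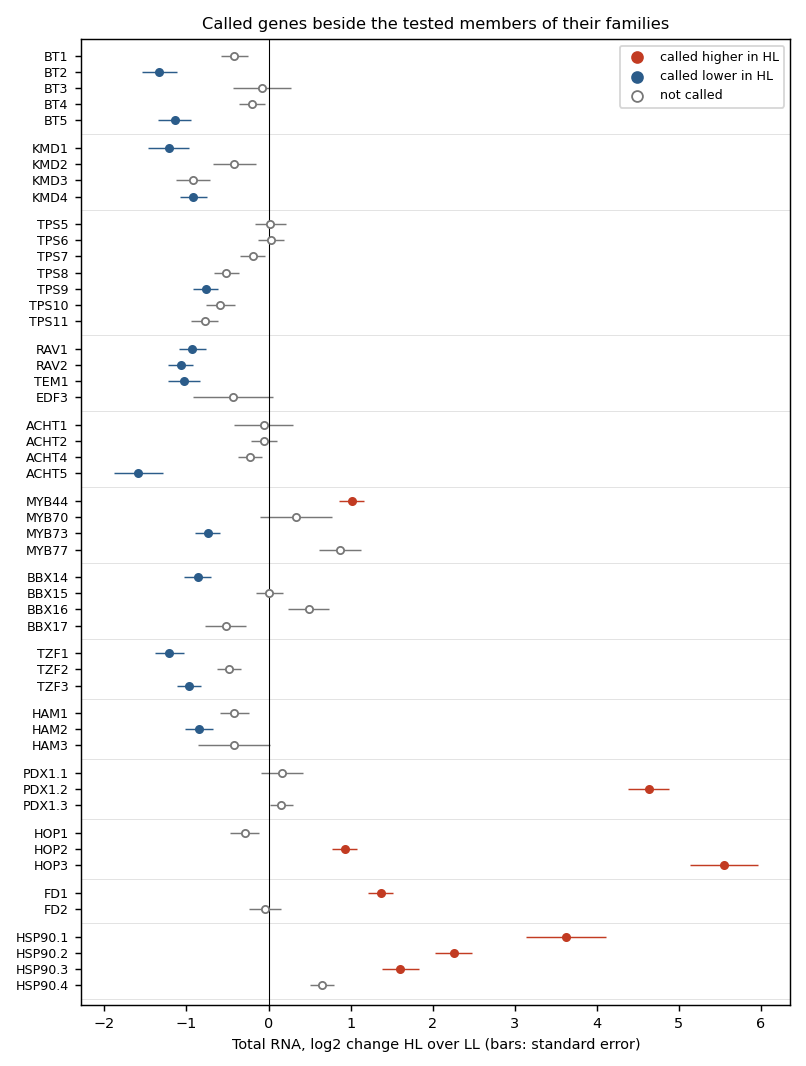
Log2 change of HL over LL in total RNA (horizontal axis, points with standard error bars) for the tested members of 13 families that hold a called gene, with filled red points called higher, filled blue points called lower and open points not called. In each of the 13 families at least 1 tested member was not called, as EDF3 beside RAV1, RAV2 and TEM1. The families and the members shown were chosen after the calls were known, and a family may have further members.

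The sugar starvation list holds genes that sugar holds down and that accumulate in darkness. This list and the other gene lists were chosen with earlier results of these data known. Their shares and medians describe the members and support nothing. Of its 23 tested members, 22 had a negative log2 change, 15 of them had an unadjusted p under 0.05, 4 were called lower (17.39%, beside 0.257% of all genes tested) and none was called higher, and the list median was -0.63 beside 0.00 over all genes. Over all genes, 7939 of 15940 had a negative log2 change, and 548 were lower at an unadjusted p under 0.05. The 4 called members were BT2, KMD4, KMD1 and TPS9. The list count moved with the libraries: 1 member, BT2, was called without LL 1 or without HL 1, 10 were called without HL 3, 1 was called higher without LL 2, and the median stayed between -0.73 and -0.45 over the fits that left out 1 library. Without the block no list member was called, with a median of -0.63.

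BT2 (AT3G48360, chromosome 3, 17908192 to 17910525, minus strand) encodes a BTB-TAZ adaptor of CUL3 ubiquitin ligases. It had 49.7, 41.4 and 25.7 CPM in HL, against 209, 77.1 and 51.9 CPM in LL. LL 1 stood far above the other LL libraries, yet the HL and LL values did not overlap, and the gene was called without pair 1 (adjusted p = 0.0134) as well as with it (log2 change -1.33 ± 0.21, adjusted p = 0.00712). BT5, of the same family, had 3.73, 5.02 and 5.87 CPM in HL, against 7.21, 12.6 and 12.3 CPM in LL without overlap (log2 change -1.14 ± 0.20, adjusted p = 0.0139), and its call was lost without pair 2 (0.229). BT1 (log2 change -0.42), BT3 (-0.08) and BT4 (-0.20) were not called.

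The KMD proteins are kelch-repeat F-box adaptors that send type-B cytokinin response regulators to degradation. KMD4 (AT3G59940) had 60.7, 57.95 and 76.7 CPM in HL, against 142, 97.9 and 132 CPM in LL. KMD1 (AT1G80440) had 7.24, 13.5 and 6.12 CPM in HL, against 29.3, 17.7 and 17.0 CPM in LL. Both were lower without overlap, with log2 changes of -0.92 ± 0.16 (adjusted p = 0.0163) and -1.21 ± 0.25 (adjusted p = 0.0433). KMD3 had the same size of change (-0.92) at an adjusted p of 0.0683, and KMD2 had -0.41 (adjusted p = 0.81). Without pair 1 neither KMD4 (adjusted p = 0.108) nor KMD1 (0.24) was called, and KMD4 was not called without pair 2 either (0.0609). Of the cytokinin list, which holds the type-A response regulators, none of 7 tested members was called, 6 were negative, and the median was -0.48 (-0.27 without HL 2 and -0.28 without LL 2).

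Among class II trehalose phosphate synthases, a family of regulatory proteins in sugar signalling, TPS9 had 17.0, 10.1 and 17.0 CPM in HL, against 36.0, 16.4 and 24.9 CPM in LL. Its groups overlapped because pair 2 stood low in both lights (log2 change -0.77 ± 0.16, adjusted p = 0.0411), and the call was lost without pair 1 (adjusted p = 0.246) and without pair 2 (0.147). TPS11 (-0.78, adjusted p = 0.0544), TPS10 (-0.59, 0.28) and TPS8 (-0.52, 0.288) had changes of the same sign that missed the threshold. TPS5, TPS6 and TPS7 stood between -0.19 and 0.03. The dark-inducible genes DIN10 (log2 change -1.00, adjusted p = 0.103) and DIN1 (-0.63, adjusted p = 0.199) were not called either, and DIN2 was the 1 positive member (0.33, adjusted p = 0.859).

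ERD5 encodes proline dehydrogenase, the first enzyme of proline breakdown. It had 17.1, 12.1 and 34.3 CPM in HL, against 49.6, 26.7 and 51.9 CPM in LL, a log2 change of -1.06 ± 0.18 (adjusted p = 0.00966). HL 3 lay above LL 2, so the groups overlapped, but the call held without each pair. NCED3, the key enzyme of abscisic acid synthesis, had 5.08, 9.75 and 5.63 CPM in HL, against 10.6, 17.9 and 15.02 CPM in LL, without overlap (log2 change -1.10 ± 0.19, adjusted p = 0.0117). On the abscisic acid and dehydration list 18 of 22 tested members had a positive log2 change, beside 8001 of 15940 over all genes tested, and the median was 0.27. NCED3 was the 1 called member (4.55% lower, beside 0.257% of all genes tested). None was called higher, with RAB18 at a log2 change of 1.29 (adjusted p = 0.202). Without LL 3 no member was called lower, and 1 member was called higher without HL 1 or LL 1 and 2 without HL 2 or LL 2.

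Nuclear genes for small plastid proteins were also among the falls. ACHT5, an atypical thioredoxin, had 4.11, 2.18 and 1.22 CPM in HL, against 16.5, 3.98 and 4.46 CPM in LL. LL 1 was high and HL 1 lay just above LL 2, and the call was lost without pair 1 (adjusted p = 0.349), beside a log2 change of -1.59 ± 0.30 and an adjusted p of 0.0235 over all pairs. ACHT1, ACHT2 and ACHT4 stood between -0.23 and -0.05 and were not called. The J-domain protein J8 had 38.5, 44.2 and 50.4 CPM in HL, against 66.6, 67.3 and 118 CPM in LL. J11 had 22.4, 43.5 and 56.2 CPM in HL, against 55.1, 70.5 and 90.5 CPM in LL. Only J8 was lower without overlap, and the log2 changes were -0.88 ± 0.16 and -0.87 ± 0.16 (adjusted p = 0.0223 and 0.0225). The call of J11 was lost without pair 1 (adjusted p = 0.149) and without pair 2 (0.0518), and that of J8 without pair 1 (0.0519). The cytosolic J-domain proteins J2 and J3, partners of HSP70, moved the opposite way, with log2 changes of 0.88 each (adjusted p = 0.0206 and 0.0432), and neither had overlapping groups. The call of J2 was lost without pair 2 (adjusted p = 0.0916), and that of J3 without pair 2 (0.13) and pair 3 (0.0968).

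The 13 unnamed falls hold the largest change among the falls. AT2G20670 (chromosome 2, 8911860 to 8913534, minus strand) had 11.9, 36.3 and 28.3 CPM in HL, against 42.8, 75.3 and 118 CPM in LL, a log2 change of -1.63 ± 0.19 (adjusted p = 0.000553). AT5G21940 (chromosome 5, 7249268 to 7250539, minus strand) had 21.8, 16 and 14.1 CPM in HL, against 47.9, 47.8 and 50.8 CPM in LL, a log2 change of -1.53 ± 0.16 (adjusted p = 0.000191). Its LL values were nearly equal and far above every HL value. AT3G15450 had 132.9, 161.8 and 176 CPM in HL, against 415, 234 and 465 CPM in LL (log2 change -1.19 ± 0.22, adjusted p = 0.0235), and its call was lost without pair 1 (adjusted p = 0.187). In 12 of the 13 the groups did not overlap, and their log2 changes lay between -1.63 and -0.86 with a median of -1.21.

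Of the 84 rises, 61 were outside the heat-shock list, with log2 changes of 0.77 to 3.89 and a median of 1.54. In 53 of the 61 every HL library lay above every LL library, against 3.57% of all genes tested. These 61 rises were also picked by their calls on the same values, so the share supports nothing. By the names used, they hold 12 chaperones or co-chaperones, 5 transcription regulators, 4 genes of RNA processing or silencing, 3 plastid proteins, 2 metabolic enzymes and 6 other named genes. Each gene was put in a single class, and any plastid chaperone is counted with the chaperones. For the other 29 no name was used and no role was assigned, so chaperones among them are not in the count of 12. Among the 29 is AT3G09440, with the highest average log2 CPM of the rises (8.33). It had 392, 461 and 652 CPM in HL, against 119, 182 and 120 CPM in LL (log2 change 1.83 ± 0.23, adjusted p = 0.000937). HL 3 was the highest HL library in 40 of the 61, and LL 2 was the highest LL library in 36.

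**Figure D3:**
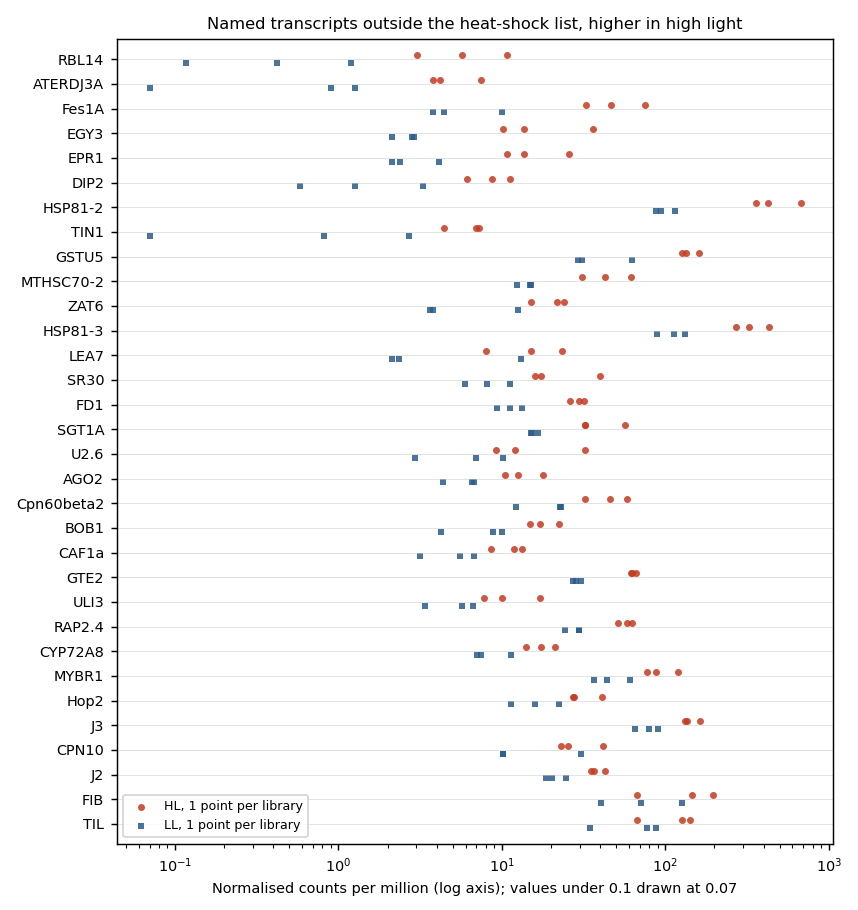
Normalised counts, CPM (horizontal log axis, values under 0.1 drawn at 0.07) of the 32 named transcripts outside the heat-shock list called higher in HL, ordered by log2 change from the top, with 1 red circle per HL library and 1 blue square per LL library. HL and LL points do not mix in rows such as GTE2, RAP2.4, FD1 and EPR1, and they do in CPN10, FIB and TIL near the bottom.

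The largest rise among these regulators was that of EPR1 (AT1G18330, chromosome 1, 6305966 to 6308013, minus strand), also called RVE7, a MYB-like protein of the CCA1 and LHY family. It had 10.8, 13.6 and 25.8 CPM in HL, against 2.1, 2.39 and 4.11 CPM in LL. Every HL value lay far above every LL value, at a log2 change of 2.55 ± 0.21 (adjusted p = 1.89e-05). ZAT6, a C2H2 zinc-finger repressor of stress responses, had 15.2, 23.9 and 21.8 CPM in HL, against 3.82, 12.7 and 3.64 CPM in LL (log2 change 1.65 ± 0.27, adjusted p = 0.00741). LL 2 stood above the other LL libraries without reaching the HL values. GTE2, a bromodomain protein, had 62.1, 66.1 and 62.8 CPM in HL, against 30.5, 27.3 and 28.4 CPM in LL, with very little spread in either light (log2 change 1.16 ± 0.15, adjusted p = 0.000986).

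RAP2.4, an AP2/ERF factor, had 51.1, 58.7 and 62.4 CPM in HL, against 29.7, 29.6 and 24.4 CPM in LL. Its log2 change was 1.06 ± 0.16 (adjusted p = 0.00385), opposite to DEWAX, RAV2 and TEM1 of the same list of stress AP2/ERF factors. On that list of 20 tested genes 1 was called higher (5%, beside 0.527% of all genes) and 3 lower (15%, beside 0.257%). Its median of -0.06 turned with the libraries, to 0.15 without HL 2 and 0.03 without LL 2, against -0.26 without HL 3 or LL 3. On the list of ZAT, WRKY, MYB and NAC factors 2 of 19 were called higher (ZAT6 and MYB44), 2 lower (WRKY70 and MYB73), 10.5% each way beside 0.527% and 0.257% of all genes. The median was 0.52, with 0.27 to 1.00 over the fits that left out 1 library, and 4 members were called higher without HL 2 or LL 2.

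The 3 rises classed as plastid proteins follow. FD1, the less abundant leaf ferredoxin in the photosynthetic electron chain, had 26.1, 29.6 and 31.9 CPM in HL, against 9.33, 13.3 and 11.2 CPM in LL, a log2 change of 1.36 ± 0.16 (adjusted p = 0.000389). FD2, the main leaf ferredoxin, had 345, 535 and 391 CPM in HL, against 363, 466 and 469 CPM in LL, and was not called (log2 change -0.05, adjusted p = 0.978). EGY3, a thylakoid relative of site-2 proteases, had 10.2, 13.6 and 36.2 CPM in HL, against 2.1, 2.89 and 2.82 CPM in LL (log2 change 2.89 ± 0.28, adjusted p = 7.01e-05). HL 3 was the highest, and all HL values of EGY3 and FD1 lay above all LL values. FIB, a fibrillin of plastid lipid droplets, was called at a log2 change of 0.80 with overlapping groups, and in none of the fits that left out 1 library.

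The cytosolic HSP90 chaperones outside the list, HSP81-2 and HSP81-3, had log2 changes of 2.25 ± 0.22 (adjusted p = 9.57e-05) and 1.61 ± 0.22 (adjusted p = 0.00223). HSP81-2 stood at 361, 426 and 673 CPM in HL, against 88.2, 115 and 94.5 CPM in LL. These are near-identical gene copies, so the split of reads between them is uncertain. HSP81-4, the next copy, was not called (log2 change 0.65, adjusted p = 0.0804). Fes1A, a nucleotide exchange partner of HSP70, had 32.9, 46.8 and 74.9 CPM in HL, against 3.82, 9.96 and 4.46 CPM in LL (log2 change 3.05 ± 0.28, adjusted p = 4.44e-05). The co-chaperones Hop2, SGT1A and BOB1 and the chaperonins Cpn60beta2 and CPN10 had log2 changes of 0.88 to 1.33. MTHSC70-2, a mitochondrial HSP70, stood at 1.70 ± 0.21. ATERDJ3A, a J-domain protein of the endoplasmic reticulum, stood at 3.08 ± 0.61 on LL counts of 3, 9 and 0, and it was not called by DESeq2 with the block (adjusted p = 1) or limma-voom (0.128). None of the 12 tested members of the endoplasmic reticulum folding list was called, and their median was 0.00. CPN10 had overlapping groups and lost its call without pair 1 (adjusted p = 0.136).

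RNA-related rises were SR30, a splicing regulator, at a log2 change of 1.44 ± 0.26, AGO2, an Argonaute protein, at 1.25 ± 0.20, CAF1a, a deadenylase that shortens poly(A) tails, at 1.16 ± 0.20, and the U2 spliceosomal RNA U2.6 at 1.28 ± 0.26. The U2.6 groups overlapped, and its call was lost without pair 1 (adjusted p = 0.24) and in limma-voom (0.0652). CAF1a had 13.2, 11.8 and 8.57 CPM in HL, against 6.78, 5.58 and 3.17 CPM in LL, without overlap, and its call was lost without pair 2 (adjusted p = 0.0905) and in DESeq2 with the block (0.0919). It was the 1 called gene among 10 tested of the touch and calcium list (10%, beside 0.527% of all genes tested). Of these 10, 9 were positive, beside 8001 of 15940 over all genes tested. The list median was 0.46 (0.77 without HL 2 and 0.76 without LL 2). Of the enzymes, the glutathione transferase GSTU5 had 127, 161 and 134 CPM in HL, against 29.3, 62.7 and 31.0 CPM in LL (log2 change 1.84 ± 0.19, adjusted p = 0.000134). The cytochrome P450 CYP72A8 stood at 1.04 ± 0.17. The other named rises were RBL14, DIP2, TIN1, LEA7, ULI3 and TIL, with log2 changes of 0.77 to 3.15. RBL14 was not called by DESeq2 with the block (adjusted p = 0.375) or limma-voom (0.064), and TIL lost its call without pair 1 (0.195) and pair 2 (0.14).

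The unnamed rises include AT1G14200 (chromosome 1, 4854384 to 4855200, minus strand), with 56.0, 65.4 and 85.7 CPM in HL, against 4.66, 6.18 and 8.45 CPM in LL, a log2 change of 3.41 ± 0.17 (adjusted p = 1.94e-07). AT3G14200 had 61.1, 76.6 and 113 CPM in HL, against 6.36, 9.76 and 8.10 CPM in LL, a log2 change of 3.35 ± 0.20 (adjusted p = 9.21e-07). AT5G12110 had 9.55, 15.4 and 35.5 CPM in HL, against 1.27, 2.39 and 1.41 CPM in LL (log2 change 3.53 ± 0.32, adjusted p = 4.37e-05). In these 3 genes every HL value lay far above every LL value. Among the rises outside the list, 2 need care. AT2G01021 (6.49, 18.0 and 69.4 CPM in HL, against 2.97, 0.0996 and 5.28 CPM in LL) neighbours rRNA rows, and the mitochondrial row ATMG01080 was higher in 2 of 3 pairs.

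The heat-shock list itself holds 53 genes, of which 40 had enough counts to be tested. Of these 40, 23 were called higher (57.5%, beside 0.527% of all genes) and none lower, with a list median of 2.74. Without HL 3 the median was 1.87 and without LL 3 it was 1.56, while 21 to 27 members were called over the fits that left out 1 library. HSFA2, a factor that sustains the response, had 58.9, 65.3 and 114 CPM in HL, against 0.00, 1.79 and 0.00 CPM in LL. HSP70 had 139, 215 and 386 CPM in HL, against 1.70, 26.4 and 5.05 CPM in LL. All 23 called members were higher without overlap, against 3.57% of all genes tested, but they were picked by their calls on the same values. Some had almost no LL counts, as Hop3 (0, 10 and 3) and AT1G59860 (0, 7 and 2), and passed the count filter through their HL libraries. HL 3 was the highest HL library in 21 of them and LL 2 the highest LL library in 18.

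PDX1.2, a non-catalytic relative of the vitamin B6 synthases, had 42.9, 30.8 and 54.8 CPM in HL, against 2.54, 1.79 and 1.17 CPM in LL (log2 change 4.63 ± 0.25, adjusted p = 5.23e-07). The catalytic members PDX1.1 (0.16) and PDX1.3 (0.16) were not called. Of the HOP co-chaperones, which bridge HSP70 and HSP90, Hop3 stood at 5.55 ± 0.41 and Hop2 at 0.93 ± 0.15, while Hop1 was not called (-0.29, adjusted p = 0.797). The constitutive heat-shock factors HSFA1A (-0.13), HSFA1B (-0.38), HSFA1D (0.35) and HSFA1E (0.27) were not called. HSFB1 and the sugar-response factors bZIP1 and bZIP53 had 0 counts in all total RNA libraries, and each has another row of the same strand and identical span, so their levels could not be read.

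**Figure D4:**
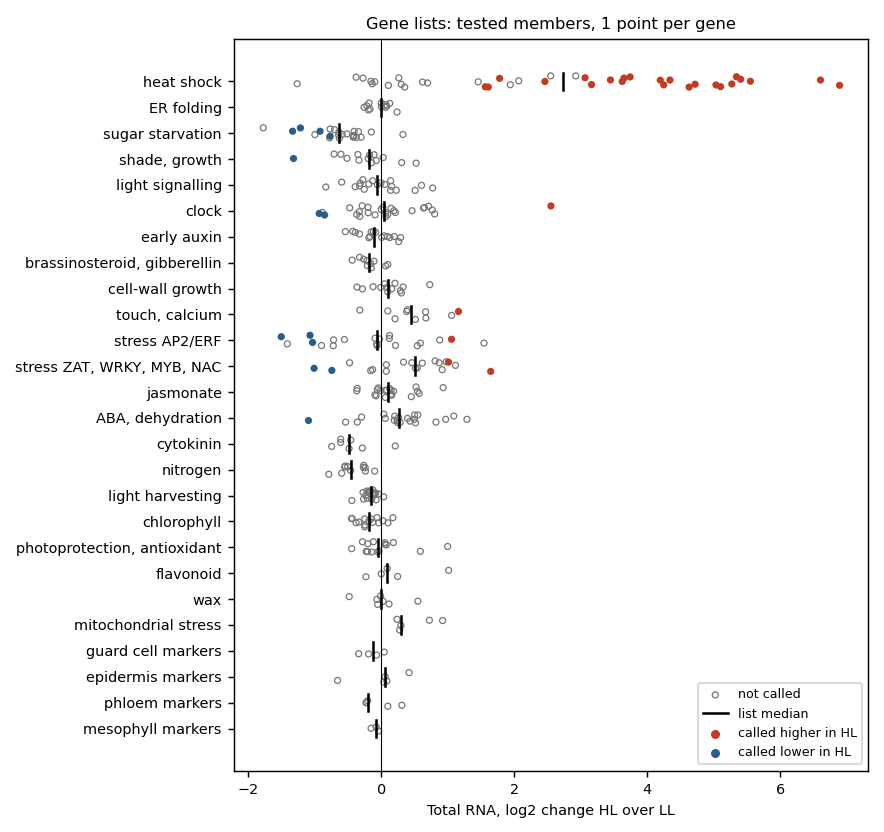
Log2 change of HL over LL in total RNA (horizontal axis) for each tested member of 26 gene lists, with filled points called higher (red) or lower (blue), open points not called, and a black bar at each list's median. The heat-shock list spreads to 6.89 with a median of 2.74, the sugar starvation list centres on -0.63, and most other lists sit near 0. The lists were chosen with earlier results of these data known.

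Outside the heat-shock list, 307 list genes were tested, and 13 were called lower and 5 higher, beside 0.257% lower and 0.527% higher over all genes tested. No member was called on the lists for light signalling (19 tested), early auxin response (16), brassinosteroid and gibberellin (10), cell-wall growth (13), jasmonate (20), nitrogen (11), light harvesting (19), chlorophyll synthesis (15), photoprotection and antioxidants (15), flavonoids (5) or mitochondrial stress signalling (5). The jasmonate median of 0.11 turned to -0.19 without HL 1 and -0.18 without LL 1. On that list 3 members were called higher without HL 3 and 1 without LL 3. On the nitrogen list all 11 tested members were negative with a median of -0.46, and 4 had an unadjusted p under 0.05. Over all genes tested 7939 of 15940 were negative. Without HL 1 the median was -0.21 and without LL 1 it was -0.22, each with 10 of 11 negative, while 3 members were called lower without HL 3 and 1 without LL 3. NIA1, a nitrate reductase, had 41.4, 56.0 and 60.6 CPM in HL, against 110, 64.9 and 70.2 CPM in LL, a log2 change of -0.59 that was not called (adjusted p = 0.477). On the light-harvesting list 18 of 19 were negative with a median of -0.16, and without HL 3 or LL 3 14 of 19 were negative with a median of -0.06. On the shade list PAR1 was the 1 called member of 14 (2 were called lower without HL 3 and none without LL 3), and the shade marker HB-2 (also called ATHB2) had a log2 change of -0.71 (adjusted p = 0.454). APX1, the cytosolic ascorbate peroxidase, had a log2 change of 0.59 (adjusted p = 0.28).

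Levels of clock genes differed widely between replicate numbers in both lights. COR27 had 57.8, 40.9 and 6.36 CPM in HL, against 64.5, 43.7 and 8.57 CPM in LL. CCA1 had 1.64, 5.02 and 12.5 CPM in HL, against 0.85, 5.98 and 8.80 CPM in LL. In both genes number 1 and number 3 differed several-fold within a light. HL and LL of 1 number were close in COR27. In CCA1 they were further apart, at 1.64 and 0.85 CPM in number 1. The CCA1 level in LL 1, the shallowest library, rests on very few counts. Neither COR27 (adjusted p = 0.844) nor CCA1 (0.894) was called, and the cause of the difference between replicate numbers was not tested. Of the 26 tested clock genes EPR1 was called higher, PRR5 and AT4G33980 lower (3.85% and 7.69%, beside 0.527% and 0.257% of all genes). The list median of 0.05 turned to -0.09 without HL 3 or LL 3, with 18 of 26 negative. AT4G33980 had 12.9, 9.38 and 1.59 CPM in HL, against 29.3, 15.2 and 3.05 CPM in LL, lower in each pair with overlapping groups (log2 change -0.93 ± 0.19, adjusted p = 0.0432), and its call was lost without pair 1 (adjusted p = 0.411), without pair 2 (0.121) and in DESeq2 with the block (0.25).

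Footprint libraries gave a readout of the called genes that the total RNA fit had not used, although they came from plants of the same replicate numbers. Of the 41 falls 40 were tested there, all 40 had a negative log2 change in footprints with a median of -0.90, and 18 were called lower, against 0.314% of the 10823 genes tested in footprints (1.38% in either direction). Of the 84 rises 76 were tested, 75 were positive with a median of 1.46, and 52 were called higher, against 1.06%. The 18 fell to 2 without RPF LL 1, to 7 without RPF HL 1, to 11 without RPF LL 3 or RPF HL 3, and to 0 without the block, where 21 of the rises were called.

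Among the falls, BT2 had 70.1, 45.2 and 14.3 CPM of footprints in HL, against 292, 81.7 and 43.2 CPM in LL, a log2 change of -1.54 (adjusted p = 8.72e-08). KMD1 stood at -1.65 (adjusted p = 5.29e-08), DEWAX at -0.95 (adjusted p = 0.000964) and PRR5 at -0.81 (adjusted p = 0.00306). NCED3 had a footprint log2 change of -0.35 (adjusted p = 0.765), beside -1.10 in total RNA. Of the rises, HSFA2 stood at 2.92 beside 6.604 in total RNA. HSFA7A had 4.78, 12.2 and 13.4 CPM of footprints in HL, against 1.28, 32.0 and 3.18 CPM in LL. RPF LL 2 stood far above the other LL libraries, and HL was above LL in pairs 1 and 3 and below it in pair 2, with a fitted log2 change of 0.07 (adjusted p = 0.98) beside 3.74 in total RNA. The difference between the footprint and total RNA changes was not tested.

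**Figure D5:**
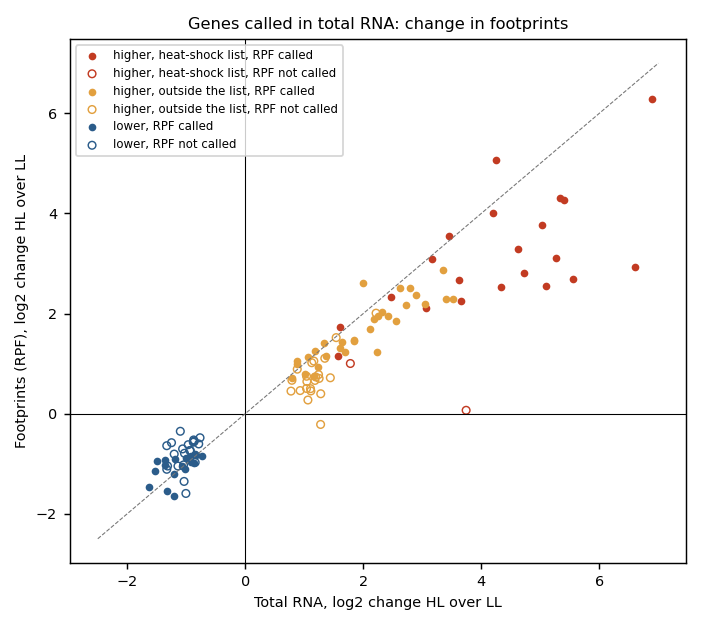
Log2 change of HL over LL in total RNA (horizontal axis) against that in footprints (vertical axis) for the called genes tested in both, with filled points called in footprints, open points not called there, colours for falls, rises on the heat-shock list and rises outside it, and a dashed line of equal change. All 40 falls lie below 0 on both axes, and 75 of the 76 rises lie above 0 in footprints.

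The counted span, introns and untranslated regions included, had a median of 1394 bases in the falls and 1798 bases in the rises, against 2339 bases over all genes tested, and 87.8% of the falls and 72.6% of the rises were shorter than that overall median. The called genes also stood higher, with a median average log2 CPM of 4.72 in the falls and 4.48 in the rises, against 3.03 over all genes tested, and the part of length or level in the calls was not tested. No 2 falls neighbour each other on a chromosome, and the 1 neighbouring pair of called genes is AT1G66080 and AT1G66090, both higher, 988 bases apart. Every row that overlaps a called gene lies on the opposite strand, and counting used strand. No plastid gene was called among 84 tested (median log2 change 0.10), nor any of 41 mitochondrial genes other than ATMG01080 (median -0.19).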

How the data were processed

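Total RNA libraries (stranded, rRNA-depleted) were sequenced from whole rosettes, 3 HL and 3 LL, beside 6 footprint libraries. The deposited values are raw counts per gene made by the authors with featureCounts 1.5.0-p1 over whole gene spans of TAIR10, introns included, with strand, per the file headers. The submitters' processing notes also name FastQC 0.11.5, cutadapt 1.9.1, Subread 1.4.5 and Bowtie2 2.2.9. Gene names came from a RefSeq table of TAIR10.1, matched by locus tag for 28009 of 28775 rows. Plastid rows were matched to it by start and end position, for 123 of 133 rows. No printed position was taken from it.

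Of 28775 rows, 674 rRNA and tRNA rows were left out. They are the rows typed so in the RefSeq table, plus mitochondrial rRNA rows picked by identifier. Counts were filtered with filterByExpr, scaled by TMM and tested with the edgeR 4.0.16 quasi-likelihood test in R 4.3.3 with replicate number as a block, and p-values were adjusted by the Benjamini-Hochberg method over all genes tested. All adjusted p-values in the text are of this kind. Footprints were fitted separately in the same way. CPM are TMM-scaled and are compared between libraries of 1 gene, not between genes. DESeq2 1.42.0 and limma 3.58.1 served as alternatives, with other scalings, filters and left-out libraries or pairs. The test was checked on simulated data.

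Samples were grouped by title. Same-numbered HL and LL libraries were taken as pairs by the rule set for this comparison. They deviated together from their group means (r = 0.45, 0.504 and 0.373 across genes), against -0.345 to -0.148 for different numbers. Deviations cancel within a light, so positive values for same numbers force values for different numbers to be negative on average. The contrast between them is therefore not independent support for the pairing. The labels do not say whether replicates came from separate sets of plants. The p-values of the fits with the block weigh the light change against the spread left after differences between replicate numbers are removed. That spread may be technical. Replicates differed by far more than sampling noise (chi-square per degree of freedom 14.8 to 56.4). Totals of 2592499 to 16660558 counts per total RNA library limit low genes, and counting error is only part of the spread.

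Named genes were the 20 largest falls, the 15 largest rises outside the heat-shock list and the 5 largest in it, if their average log2 CPM reached 1 and 3 of 3 pairs moved 1 way. For each list they were the 3 lowest p-values and the most abundant gene tested. The 3 most abundant called genes per direction were added. Other called genes, family members and role classes were added after their values were seen. The members and lists were chosen with earlier results of these data known. Promoter motifs and intron numbers are not analysed here.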

Additional observations from a re-analysis of the deposited data

How the results depend on the processing

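Beside 84 rises and 41 falls, and 13 falls and 5 rises on the lists other than heat shock, the fit without the replicate block gave 32 and 2, and 1 and 1 on those lists. DESeq2 without the block gave 54 and 9, with 2 and 2. Without a low-count filter, with the block, the counts were 187 and 93, with 23 and 17. Without pair 1 and without pair 2 the falls on those lists were 8 each. Without pair 3 there were 87 falls, and 22 falls and 8 rises on those lists. Over the fits that left out 1 library, the rises ranged from 69 to 129, the falls from 29 to 88, the heat-shock list rises from 21 to 27, and the falls and rises on the other lists from 8 to 23 and from 5 to 13. The highest counts came without LL 2 (129 rises) and without HL 3 (88 falls). Of the falls, 18 were called in footprints, against 0 without the block, 6 without pair 1, 11 without pair 3 and 2 to 14 over single left-out libraries. Of the rises, 52 were called there, against 21 without the block and 35 to 51 over single left-out libraries. The cause of these moves was not tested, beyond the smaller number of libraries and the larger spread without the block (square root of the common dispersion 0.253, beside 0.148 with it). In a fit with the block, leaving out 1 library also takes its partner out of the light change, in total RNA and in footprints. A move seen without 1 library can therefore not be laid on that library alone.

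DESeq2 with the block, limma-voom, RLE scaling, nuclear or protein-coding genes alone, rRNA and tRNA included and a filter of 1 CPM in 3 libraries gave 72 to 93 rises and 34 to 54 falls. These totals hide turnover. DESeq2 with the block called 31 of the 41 falls and 70 of the 84 rises, and limma-voom called all 41 falls and 81 of the rises. The falls that DESeq2 did not call were AIF1, AT4G33980, MYB73, HAM2, TPS9, COL9, OFP16, BT5, AT3G06070 and AT1G74940. Of 2462 values of 130 single genes under the alternatives, 2319 kept their side of the threshold, 122 fell short of it and 21 newly passed it. In 0 did the direction turn with a call in either fit. Turns of direction in genes called in neither fit were not counted apart and are among the 2319. LL 1, with the fewest counts, limits the genes near 1 CPM. DESeq2 without the block, the pairs left out and the footprint alternatives were chosen after seeing the data.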

Other observations

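Clock and daylength genes outside the calls also differed between replicate numbers in both lights. TOC1, an evening clock gene, had 62.5, 40.1 and 18.4 CPM in HL, against 71.7, 42.2 and 31.1 CPM in LL. LNK2 had 8.51, 24.2 and 38.7 CPM in HL, against 7.63, 20.3 and 37.4 CPM in LL. PRR9, a morning gene, had 1.79, 3.88 and 24.0 CPM in HL, against 0, 5.28 and 10.6 CPM in LL. TOC1 stood highest in replicate 1, and LNK2 and PRR9 stood highest in replicate 3, in each light. None of the 3 was called between the lights.

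The heat-shock list summed to 1031, 1296 and 2444 CPM in HL 1 to 3, against 160.3, 269.8 and 219.9 CPM in LL 1 to 3. The list was highest in HL 3 among the HL libraries and in LL 2 among the LL libraries. Of all counted rows, 6144 had 0 counts in the 6 total RNA libraries, 4881 of them protein-coding, and 85 rows share an identical span and strand with another row.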
